A study of Caenorhabditis elegans with 8 samples.

Results

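The arms described here are the left end of chromosome II, the right end of chromosome III and the left end of chromosome V, each 1 of 3 equal parts of its chromosome. Members are windows of 1 kb in these parts, cut at the highest coordinate found in any deposited list, and windows without a tag in all 8 libraries were left out. This gave 16361 windows, of 99384 windows with a tag on the 6 nuclear chromosomes. There were 5045 on II (II:1-5093000), 4582 on III (III:9189001-13783603) and 6734 on V (V:1-6973000). The middle parts of the same 3 chromosomes, called centers here, held 16536 such windows. The arms were set by position and by no measured value, but with earlier results of these data known. They were proposed as the ends that hold the meiotic pairing centers, but in the genetics of this worm the pairing centers of II and III are at the left end and that of V is at the right end. The name fits only the arm of II, and the lists hold no assay of pairing. The arms are therefore named by position.

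All 8 libraries came from oocytes purified from fer-1(b232) worms, a temperature-sensitive Caenorhabditis elegans mutant whose sperm cannot fertilize, grown at its restrictive temperature. Such oocytes are ovulated without fertilization, copy their DNA again and accumulate in the animal, so they differ from oocytes that go on to form an embryo. In 7 libraries the DNA had been cut by the oocytes' own nuclease (endocleavage). Fragments were read from both ends (paired-end) in the libraries of 20 to 80 bp, 50 to 130 bp, 80 to 230 bp and 130 to 430 bp. A single end was read for DNA of 40 to 90 bp, 90 to 140 bp and 140 to 240 bp. The other library is core DNA of 150 bp that micrococcal nuclease (MNase) released from oocyte chromatin, and how many of its ends are endocleavage cuts was not tested. Each condition has 1 library, so no value has an error between oocyte preparations and no test between conditions was possible. Depth lay between 6097218 fragments (20 to 80 bp) and 32660817 tags (140 to 240 bp), and the MNase library had 7892011 tags. Repeated tags made up 60.1% of the 140 to 240 bp library, 22.9% of the 40 to 90 bp library and 13.2% of the MNase library.

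As background, chromosomes of this worm have no single centromere. Their centers are rich in conserved and widely expressed genes, and their arms are rich in repeats and in histone marks of silent chromatin. Meiotic crossovers are more frequent on the arms. A nuclease cuts DNA most easily where the helix faces away from the histones, so cuts along a nucleosome recur about once per helical turn. The size of a fragment, the spacing of its ends and the density of ends along the chromosome are thus separate readouts of packaging. Density depends as well on where reads can be mapped, and the paper kept paired reads only with a perfect match at a unique position. The question put to the data was whether these readouts differ between an arm and the center of the same chromosome.

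All 3 arms had fewer endocleavage ends than their centers in every endocleavage library. Coverage is given as 5′ ends per kb of windows with a tag, and each ratio is the arm over its own center. In the 40 to 90 bp library the arm of II had 277.8 ends per kb, against 357.3 in its center, a ratio of 0.778 (exact 95% binomial interval 0.776 to 0.779). The arm of III had 291.3, against 367.4 in its center (ratio 0.793, interval 0.791 to 0.795). The arm of V had 272.7, against 331.2 in its center (ratio 0.823, interval 0.822 to 0.825). These intervals, here and below, cover counting error only, and PCR copies of one fragment are not independent. How much of the lower coverage of the arms comes from windows to which few reads can be mapped was not tested.

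The ratio did not follow fragment size step by step, but was nearest to 1 in the libraries of 140 to 240 and 130 to 430 bp. Over the 3 arms together it was 0.844 at 20 to 80 bp, 0.800 at 40 to 90 bp, 0.833 at 50 to 130 bp, 0.822 at 90 to 140 bp, 0.855 at 80 to 230 bp, 0.894 at 140 to 240 bp and 0.908 at 130 to 430 bp. On III the lowest ratio was at 90 to 140 bp (0.789), and on II and V at 40 to 90 bp. In every endocleavage library the arm of V had the ratio nearest to 1. The arm of III stood below that of II in all of them except the 40 to 90 bp library. MNase core DNA behaved differently on each arm. The arm of II had 84.0 MNase ends per kb, against 81.9 in its center (ratio 1.03). On III the arm had 65.6, against 74.7 in its center (ratio 0.879), and the arm of V had 87.6, against 90.3 in its center (ratio 0.969). Set over the MNase ratio of the same arm, the 40 to 90 bp ratio was 0.758 on II, 0.902 on III and 0.850 on V. On III the 140 to 240 bp ratio over the MNase ratio was 0.998, so in mean coverage the long endocleaved DNA and the MNase cores were depleted there to the same degree. The median window fell more for MNase, with 59 ends in the arm of III against 71 in its center. At 140 to 240 bp it had 310 ends in that arm against 356 in its center.

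Variation along the chromosome gives the only spread that these data hold. Each arm was divided into blocks of 1 Mb from the chromosome end, with a last block counted when it was at least 0.5 Mb long. In the 40 to 90 bp library the 17 arm blocks lay between 0.668 and 0.980 times their center, with a median of 0.779, whereas the 17 center blocks lay between 0.919 and 1.05. Most arm blocks were thus below every center block, and the ranges overlapped only through the innermost blocks. In the MNase library the arm blocks lay between 0.729 and 1.16 with a median of 0.989, and the center blocks between 0.95 and 1.09. There the arm blocks reached both below and above the centers.

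**Figure D1:**
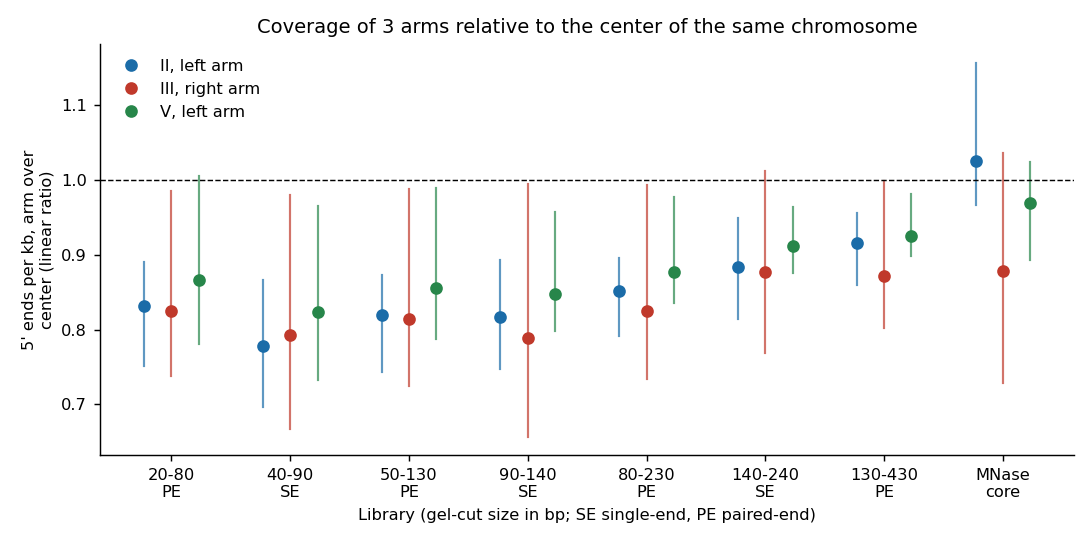
Coverage of the 3 arms relative to the center of the same chromosome. Points are the ratio of 5′ ends per kb in each library (x axis, ordered by fragment size, MNase last) and vertical lines run from the lowest to the highest 1-Mb block of that arm, with the center at 1 (dashed). Points are 0.778 to 0.823 at 40 to 90 bp and 0.872 to 0.925 at 130 to 430 bp, and the MNase point of II is at 1.03.

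The depletion was not particular to these ends. Over all 3 chromosomes the opposite arms had 0.778 times the coverage of the centers in the 40 to 90 bp library, slightly less than the 0.800 of the arms described here. The arms described here had 1.03 times the ends per kb of the opposite arms in that library, 1.04 times at 140 to 240 bp and 1.03 times in the MNase library. The arm of II had 1.12 times the MNase ends of the opposite arm of II.

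Paired-end reads give the size of each fragment, so the ratio could be followed in size classes of 10 nt (fragments per kb in the 3 arms over the 3 centers). In the 20 to 80 bp library the ratio was 0.898 for fragments of 30 to 39 nt, 0.847 for 40 to 49 nt and 0.828 for 60 to 69 nt, so it was nearer to 1 at the short end. In the 50 to 130 bp library it was 0.825 for fragments of 60 to 69 nt, 0.837 for 90 to 99 nt and 0.859 for 110 to 119 nt. The 80 to 230 bp library gave 0.933 for 60 to 69 nt, below its stated size range, and 0.831 for 80 to 89 nt. In the 130 to 430 bp library it was 0.900 for 140 to 149 nt, 0.922 for 160 to 169 nt, only 0.866 for 200 to 209 nt and again 0.924 for 260 to 269 nt. The lower value of the longer class, 200 to 209 nt against 160 to 169 nt, was seen on each arm, with ratios of 0.866 against 0.929 on II, 0.840 against 0.890 on III, and 0.883 against 0.938 on V. The size of 160 to 169 nt is that of a nucleosome core with some linker, and 200 to 209 nt lies above the usual nucleosome repeat.

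Both ends of the size range of the 130 to 430 bp library stood out. At 330 to 339 nt the ratio was 1.07 (interval 1.02 to 1.11), and at 350 to 359 nt it was 1.26 (interval 1.18 to 1.35), on 1880 fragments in the arms and 1505 in the centers. The excess at 330 to 339 nt was seen on V only, with 1.15 on V, against 1.01 on II (interval 0.936 to 1.09) and 1.01 on III (interval 0.926 to 1.10). At 120 to 129 nt, below the stated size range, it was 1.08 (interval 1.07 to 1.10), against 0.901 at 130 to 139 nt. The excess at 120 to 129 nt was present on II (1.11), on III (1.09) and on V (1.06). In the 50 to 130 and 80 to 230 bp libraries fragments of 120 to 129 nt had ratios below 1, with 0.859 in the 50 to 130 bp library. With each distinct fragment counted once, the 130 to 430 bp library gave 1.09 for 120 to 129 nt and 1.27 for 350 to 359 nt. What sets the 120 to 129 nt fragments of this library apart was not tested.

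**Figure D2:**
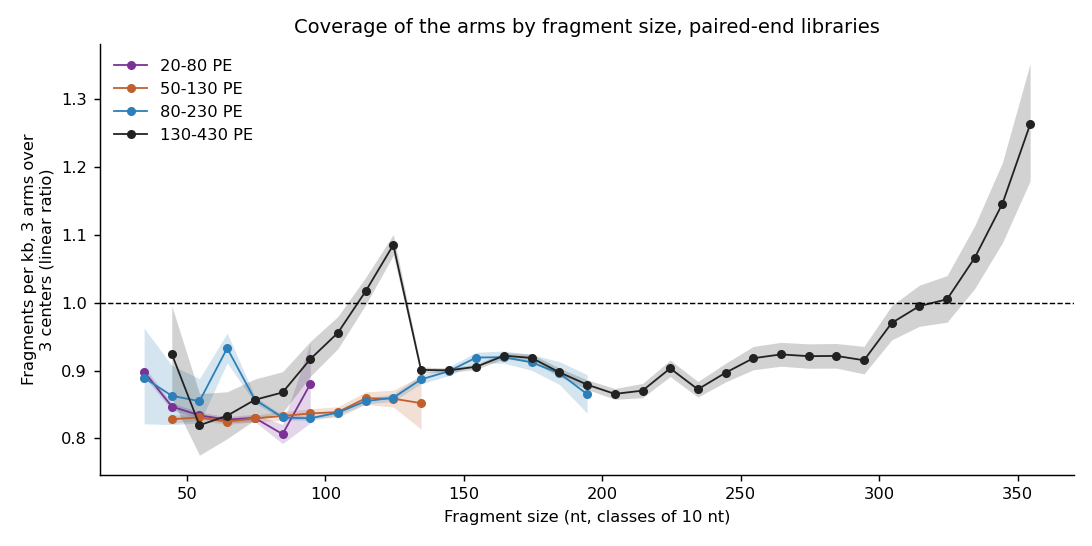
Ratio of fragments per kb in the 3 arms to the 3 centers (y axis) by fragment size in classes of 10 nt (x axis), in the paired-end libraries. Shading is the exact 95% binomial interval, and classes with fewer than 1000 arm fragments are not drawn. The ratio is 0.825 for 60 to 69 nt in the 50 to 130 bp library. In the 130 to 430 bp library it is 0.922 for 160 to 169 nt and 0.866 for 200 to 209 nt, and above 1 for 110 to 129 nt and from 320 nt.

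Preferred fragment sizes were the same in arms and centers to within 1 nt in the short libraries. The most frequent fragment was 69 nt in the 20 to 80 and 50 to 130 bp libraries, 79 nt in the 80 to 230 bp library and 145 nt in the 130 to 430 bp library, in the arms and in the centers alike. Peaks of the 50 to 130 bp histogram were at 49, 59, 69, 79, 90, 99, 110 and 120 nt in the arms and at 49, 59, 69, 79, 90, 100, 110 and 120 nt in the centers. A sinusoid fitted to the histogram after division by a smooth had a period of 10.33 nt in the arms and 10.34 nt in the centers for that library, with amplitudes of 82.5% of the smooth in the arms and 82.9% in the centers. In the 20 to 80 bp library the period was 10.38 nt in both, with amplitudes of 81.9% in the arms and 84.0% in the centers. In this library each arm had a slightly lower amplitude than its center, with 82.0% against 84.1% on II, 82.3% against 83.8% on III and 81.6% against 84.0% on V. The order was the reverse in the 80 to 230 bp library. There it was 43.8% in the arm against 42.9% in the center on II, 41.8% against 41.6% on III and 44.4% against 43.6% on V.

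In the 130 to 430 bp library the shares of fragment classes differed by small amounts. Fragments over 210 and up to 250 nt were 6.35% (interval 6.32 to 6.38) in the arms and 6.51% (interval 6.48 to 6.54) in the centers. Fragments above 250 nt were 5.28% (interval 5.25 to 5.31) in the arms and 5.02% (interval 4.99 to 5.04) in the centers. The median size was 157 nt in both.

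The 10-nt rhythm of the cuts was stronger in the arms of II and III than in their centers. It was measured from coincidence numbers, the count of pairs of same-strand 5′ ends at each distance. A sinusoid with a period near 10 nt was fitted to these numbers, and its amplitude, in percent of the mean coincidence number, is called the 10-nt share. In the arm of II at 40 to 90 bp, coincidence numbers peaked at 10, 21, 31, 41, 52, 62, 72, 82 and 93 nt, the same distances as in its center. For distances up to 100 nt the share was 29.0% in the arm of II and 24.2% in its center, 29.8% in the arm of III and 25.2% in its center, and 23.9% in the arm of V and 23.6% in its center. The same fit at shorter and longer periods, away from the turn of the helix, gave 3.89 to 5.41% in the arms and 4.14 to 4.29% in the centers.

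In proportion to the center all 3 arms gained more at longer distances up to 300 nt in this library, the arm of V least. For distances over 100 and up to 200 nt the share was 9.26% in the arm of II against 6.71% in its center, 10.6% in the arm of III against 7.6% in its center, and 6.83% in the arm of V against 6.05% in its center. For distances over 200 and up to 300 nt, beyond the length of a nucleosome repeat, it was 3.11% in the arm of II against 1.86% in its center, 3.68% in the arm of III against 2.42% in its center, and 2.50% in the arm of V against 2.04% in its center. In the next 100 nt of distance the arm of III was no longer above its center, with 0.869% against 0.891%. The share there was 1.53% in the arm of II against 0.721% in its center. On V it was 0.951% in the arm against 0.778% in its center, where other periods gave 0.506% in the arm. The best period between 100 and 200 nt was 10.02 nt in the 3 arms together and 10 nt in the centers.

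By 1-Mb block between 100 and 200 nt, the arm of II ran from 7.50 to 11.9% (median 10.2%) and its center from 6.41 to 6.91%, with no overlap. The arm of III ran from 8.61 to 13.2% (median 10.5%) and its center from 6.92 to 8.91%, which overlap in the innermost arm block. The arm of V ran from 5.52 to 8.37% (median 6.86%) and its center from 5.76 to 6.23%, so that the arm of V spread to both sides of its center. The opposite arms had 8.76% on II, 12.5% on III and 8.81% on V. In this library and distance range the arms of III and V described here thus had a lower share than the opposite arm, and that of II a higher one. The order was not the same throughout, since on II the arm had 3.39% against 3.63% in the opposite arm at 140 to 240 bp. On III at 40 to 90 bp, for distances over 200 nt, the arm had 3.68% against 2.91% in the opposite arm. That order on III rested on windows of extreme coverage. Without windows over 5 or under 0.2 times the median the arm had 3.67% against 4.32% in the opposite arm.

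**Figure D3:**
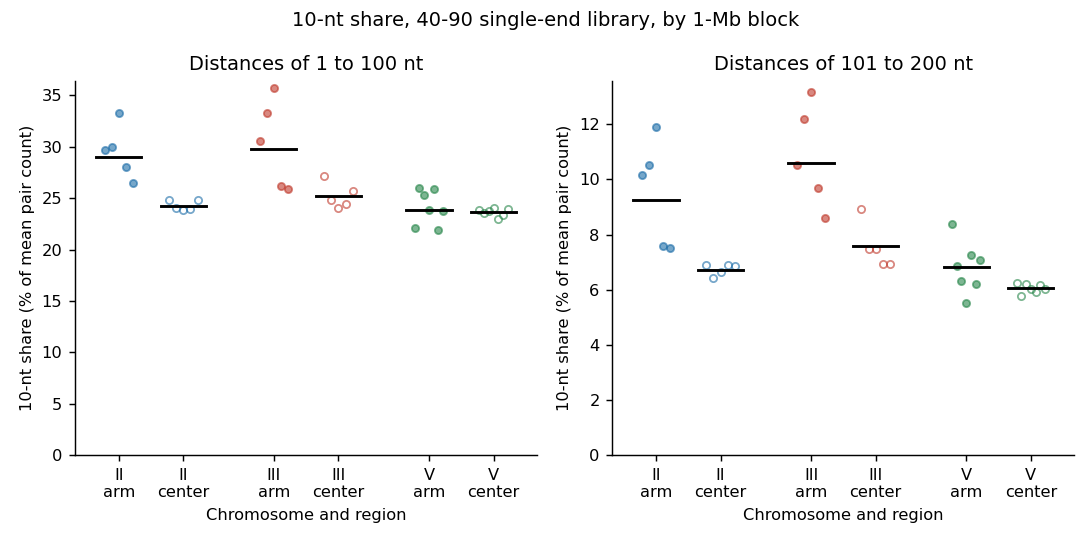
The 10-nt share in the 40 to 90 bp library, in percent of the mean coincidence number, at distances up to 100 nt (left) and 100 to 200 nt (right). Each point is a 1-Mb block of an arm (filled) or a center (open), and horizontal bars are the whole region. Between 100 and 200 nt the blocks of the arm of II (7.50 to 11.9%) are all above those of its center, and the blocks of V overlap.

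On II and III the arm had a higher share than its center between 100 and 200 nt in every endocleavage library. In the 50 to 130 bp library the share between 100 and 200 nt was 8.11% in the arm of II against 6.05% in its center, 9.54% in the arm of III against 6.77% in its center and 5.92% in the arm of V against 5.67% in its center. In the 140 to 240 bp library it was 3.39% in the arm of II against 3.02% in its center, 4.05% in the arm of III against 3.18% in its center, and 2.77% in the arm of V against 2.80% in its center. On V the arm and its center were thus close in both libraries. At 140 to 240 bp other periods gave 0.652% in the arm of V and 0.647% in its center, more than the shares differed. The MNase library had little rhythm. Without windows of extreme coverage its share below 100 nt was 3.41% in the arms, where other periods gave 2.17%, and 3.01% in the centers, where other periods gave 2.14%.

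A few windows weighed on these numbers, since pairs within one crowded window grow with the square of its count. The window of the arm of V with most ends was V:265001-266000, with 3265 ends at 40 to 90 bp and 1701 MNase ends. This is 10.8 and 22.7 times the median window of each library. The ends lay at 274 and 146 distinct positions and strands. In the first block of V the MNase share below 100 nt was 28.5%, and 2.83% once windows over 5 or under 0.2 times the median were left out. The 40 to 90 bp share of that block between 100 and 200 nt, the highest of the arm of V, was 8.37% with all windows and 8.02% without them. Over the whole arm of V the share below 100 nt was 25.1% without such windows, against 23.6% in its center. On III the window with most ends was III:13780001-13781000, close to the chromosome end, with 1892 ends at 40 to 90 bp and 840 MNase ends (6.24 and 11.2 times the median). On II it was II:4641001-4642000 for the 40 to 90 bp library, with 914 ends at 111 positions and strands (3.02 times the median), where MNase gave 38 ends (0.507 times the median). The MNase maximum of II was II:3994001-3995000, with 477 MNase ends (6.36 times the median) and 743 ends at 40 to 90 bp (2.45 times). What these windows contain was not analysed here, since the build of the lists is not named.

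Coverage and rhythm changed along the arms, and in opposite directions on II and III. From the chromosome end inward, the 40 to 90 bp coverage of the arm of II was 0.823, 0.696, 0.713, 0.757 and 0.867 times its center in successive 1-Mb blocks. Chromosome III had 0.771, 0.668, 0.712, 0.909 and 0.980 from its end inward. The arm of V had 0.789, 0.779, 0.733, 0.744, 0.826, 0.911 and 0.965. In each arm the outermost block was above the lowest block, which lay 1 to 3 Mb from the end, and the innermost block was the highest.

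The 10-nt share between 100 and 200 nt ran the other way on II and III. It was 10.2, 10.5, 11.9, 7.59 and 7.50% from the end of II inward and 10.5, 12.2, 13.2, 9.70 and 8.61% from the end of III inward. The strongest rhythm was in II:2000001-3000000 and III:10784001-11784000, and the weakest in the innermost blocks II:4000001-5000000 and III:9189001-9784000. On V the share was 8.37, 6.86, 6.32, 5.52, 7.25, 6.23 and 7.09%, highest in V:1-1000000 and lowest in V:3000001-4000000, with no steady course. Across the 17 arm blocks the rank correlation of coverage with share was -0.456 (Pearson's r = -0.425) at 40 to 90 bp, and across the 17 center blocks it was -0.147 (r = -0.017). Blocks share a chromosome and a library, and both measures come from the same ends, so these coefficients only describe the blocks.

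MNase ends did not follow the same course on II and V. On II they were 0.967, 1.01, 1.00, 1.16 and 1.01 times the center from the end inward. On III they were 0.898, 0.729, 0.841, 0.951 and 1.04, close in shape to the endocleavage course on that arm. On V they lay between 0.894 and 1.02 with no trend. The 130 to 430 bp library had a flatter course than the 40 to 90 bp library, with 0.859 to 0.957 on II, 0.802 to 0.999 on III and 0.899 to 0.982 on V.

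The arm of V also held most of the windows left out. There were 239 empty windows on V, 48 on II and 13 on III, together 1.80% of the windows of the arms, against 0.744% in the centers and 0.872% over the genome. The excess was on V and II, and III had fewer in its arm (0.283%) than in its center (0.762%). The longest run without a tag in any library was 75 windows at V:2488001-2563000, and only 779 windows of that 1-Mb block held a tag. In the 100-kb bin centered 2.45 Mb from the end of V, the 4 windows with a tag had 0.0277 times the MNase coverage of the center.

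**Figure D4:**
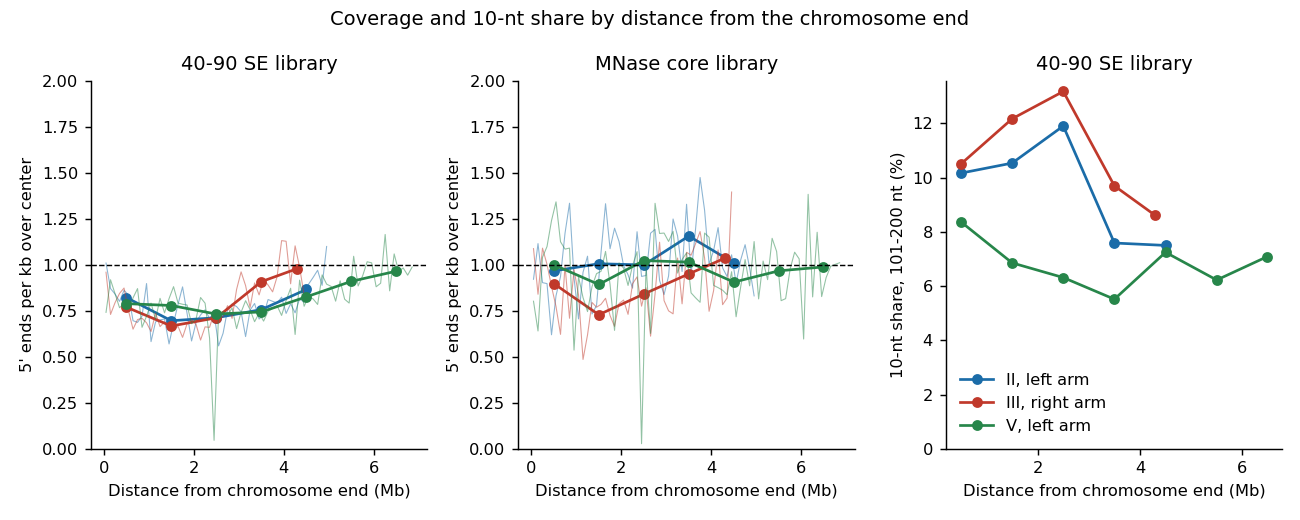
Coverage over the center of the same chromosome in the 40 to 90 bp (left) and MNase (middle) libraries, and the 10-nt share between 100 and 200 nt in the 40 to 90 bp library (right), by distance from the chromosome end in Mb. Thick lines with points are 1-Mb blocks and thin lines are 100-kb bins. Endocleavage coverage is lowest 1 to 3 Mb from each end, with minima of 0.696 on II, 0.668 on III and 0.733 on V, and the share on II and III is highest in the same stretch (11.9 and 13.2%).

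The nucleosome repeat was close in arms and centers in the MNase and 130 to 430 bp libraries, and less so at 40 to 90 bp. It was read as the strongest period between 120 and 220 nt in coincidence numbers up to 1500 nt. In MNase core DNA it was 183 nt in the arm of II against 181.5 nt in its center, 182.5 nt in the arm of III against 182 nt in its center, and 180.5 nt in the arm of V against 183 nt in its center. MNase blocks of the arms ran from 160.5 to 186.5 nt and those of the centers from 180.5 to 184.5 nt. The low value came from the first block of V, which gave 182 nt without windows of extreme coverage, and the whole arm of V then gave 182.5 nt. At 40 to 90 bp the repeat was 189.5 nt in the arm of II against 186 nt in its center, and 181.5 nt in the arm of V against 186.5 nt in its center. The arm of V gave 185.5 nt without windows of extreme coverage. On III the arm gave 195.5 nt with a second maximum at 147 nt of 94.3% of the power, against 186.5 nt and 149 nt (55.0%) in its center, and 189 nt without windows of extreme coverage. DNA of 40 to 90 bp thus gave no single repeat on III. Its 1-Mb blocks there ran from 149 nt to past 200 nt, and from 149 to 189.5 nt without windows of extreme coverage. The 130 to 430 bp library gave 185.5 nt in each of the 3 arms, against 184.5 nt in the centers of II and III and 187.5 nt in that of V. At 20 to 80 bp the strongest period was shorter, with 154 nt in the 3 arms together and 153 nt in the centers. The second maximum was at 192.5 nt with 80.7% of the power in the centers, and at 204 nt with 21.3% in the arms. The centers thus gave no single repeat in this library. The arm of V alone gave 208.5 nt in this library, against 154.5 nt in its center. That arm gave 192.5 nt without windows of extreme coverage. With each position counted once it gave 157 nt, against 190.5 nt in its center, so no difference on V was read from these values.

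In the endocleavage libraries the offset between cuts on opposite strands was the same in each arm as in its center. The most frequent gap between a cut on one strand and the cut on the other was 3 nt in the 40 to 90, 20 to 80 and 50 to 130 bp libraries and 4 nt in the 90 to 140, 80 to 230, 140 to 240 and 130 to 430 bp libraries, in each arm and in each center. The opposite arm of V gave 4 nt, not 3 nt, at 20 to 80 and 50 to 130 bp. Gaps were searched only up to 6 nt. In the MNase library no gap in that range stood out from the median over gaps within 40 nt. The highest count was 0.969 times that median in the arm of V and 1.01 times in its center. It was 1.03 times in the arm of II and 1.07 times in the arm of III, against 1.45 times in the arm of II at 40 to 90 bp. No offset was therefore read from MNase ends.

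Windows of 1 kb with few ends were more frequent in the arms than in the centers. At 40 to 90 bp, 1244 of the 16361 arm windows (7.6%) were under 0.5 times the library median, against 635 of 16536 center windows (3.84%), where the whole genome had 7.12%. The arms were thus near the genome and the centers below it. Windows over 2 times the median were rare, with 24 in the arms (0.147%) and 54 in the centers (0.327%), and 0.194% over the genome.

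In the MNase library low windows were more frequent in each arm than in its center, and high windows more frequent on II and V. Windows under 0.5 times the median were 16.6% of the arms and 9.55% of the centers (genome 14.8%), and windows over 2 times the median were 6.63% of the arms and 4.52% of the centers (genome 5.46%). Both arm shares were near those of the genome. On III high windows were 3.49% of the arm and 3.55% of its center. The largest share of low windows was on the arm of III, with 24.9% against 14.3% in its center, and the largest share of high ones on the arm of II, with 8.82% against 3.80% in its center. The upper quartile was 2.24 times the lower quartile in the arm of II and 1.76 times in its center. With a median of 75 ends per window, MNase counts carry more counting error than 40 to 90 bp counts (median 303) in both regions.

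Set side by side, windows with little short endocleaved DNA for their MNase signal were more frequent in each arm than in its center, and in the opposite arms as well. The ratio of 40 to 90 bp ends to MNase ends was taken in windows with at least 10 ends in both libraries and divided by its genome median. It was under 0.5 in 12.1% of the windows of the arm of II against 2.21% of its center, in 11.7% of the arm of V against 4.16% of its center, and in 4.73% of the arm of III against 2.02% of its center, where the genome had 6.81%. Over the 3 chromosomes it was under 0.5 in 9.91% of the arms, against 11.2% of the opposite arms, with 17.5% in the opposite arm of V and 7.66% in that of II. It was over 2 in 563 of 4898 windows of the arm of II against 16.9% of its center, in 23.3% of the arm of III against 24.3% of its center and in 8.52% of the arm of V against 9.42% of its center (genome 14.2%).

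The 40 to 90 bp library ranked the windows weakly with MNase in the arms and weakly against it in the centers. Across 1-kb windows the Spearman correlation of 40 to 90 bp ends with MNase ends was 0.218 in the arm of II against -0.180 in its center, 0.211 in the arm of III against -0.135 in its center, and 0.194 in the arm of V against -0.117 in its center. The sign was the same on all 3 chromosomes. Without windows over 5 or under 0.2 times the median of either library, it was 0.108 in the arm of II against -0.249 in its center, 0.097 in the arm of III against -0.240 in its center, and 0.108 in the arm of V against -0.199 in its center. The centers were nearer to 0 in the other short libraries. At 20 to 80 bp the arms had 0.254 to 0.302, against -0.042 in the center of II, 0.0099 in that of III and 0.024 in that of V. At 50 to 130 bp the arms had 0.308 to 0.365, against 0.00038 in the center of II, 0.069 in that of III and 0.073 in that of V. Over the 3 arms together the correlation of the 40 to 90 bp library was 0.186 in windows of 1 kb and -0.0023 in windows of 10 kb. The positive value of the pooled arms was thus not seen at the larger scale, where the arms were not taken separately. Windows share libraries and base composition with their neighbors, and how much of each coefficient comes from windows to which few reads can be mapped was not tested.

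Longer DNA ranked windows as MNase did in both regions, with higher values in the arms. For the 130 to 430 bp library the correlation was 0.764 in the arm of II against 0.616 in its center, 0.725 in the arm of III against 0.664 in its center and 0.695 in the arm of V against 0.599 in its center. The correlation of 140 to 240 bp with 40 to 90 bp ends also differed, with 0.520 in the arm of II against 0.185 in its center, 0.526 in the arm of III against 0.197 in its center, and 0.507 in the arm of V against 0.212 in its center. The opposite arms were like the arms described here, with 0.239 over the 3 chromosomes for 40 to 90 bp against MNase, where the arms had 0.186 and the centers -0.172.

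**Figure D5:**
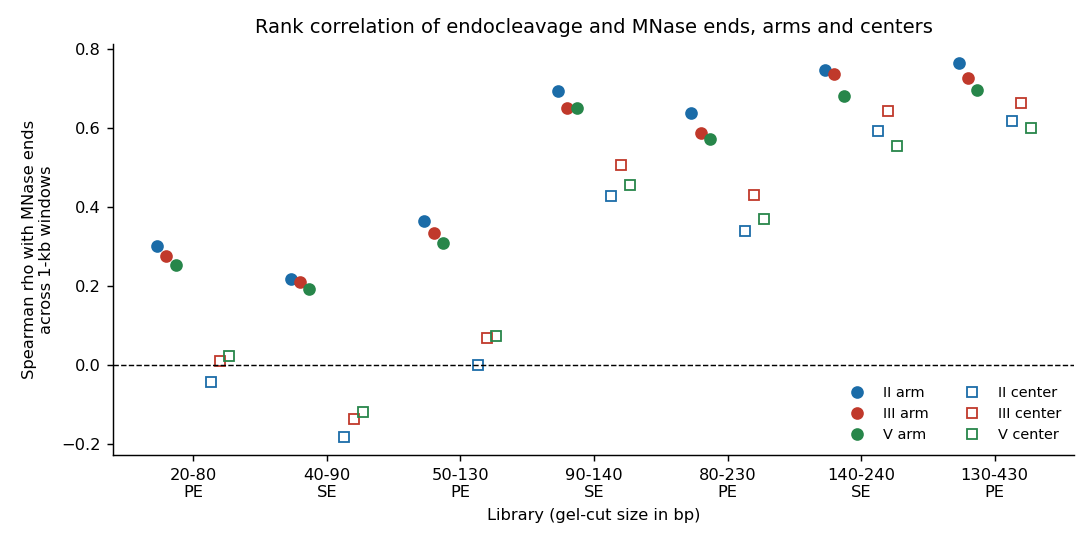
Spearman correlation of endocleavage ends with MNase ends across 1-kb windows (y axis), by library (x axis, ordered by fragment size), in the arms (filled circles) and the centers (open squares) of II, III and V. At 40 to 90 bp the arms are at 0.194 to 0.218 and the centers at -0.180 to -0.117, and in every library each arm is above its center.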

How the data were processed

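The authors size-selected oocyte DNA on gels, blunted it, ligated linkers, amplified it and sequenced 25 nt of single ends or both ends of fragments. The submitters' processing notes name Bowtie 0.12.7. The genome build is not given in the sources used here. The deposited lists give each mapped position, or fragment, with a whole-number tag count, and no count was normalized by the authors. The library called 50 to 130 bp after its label is 40 to 130 bp in the study's text.

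Each tag was placed at its 5′ end, and each fragment gave an end on both strands. Coverage was summed in windows of 1 kb. Coincidence numbers multiply the counts of paired positions. The share used a quadratic baseline, the repeat a cubic baseline in log distance with a Hann taper, and size periods a histogram divided by its Gaussian smooth (SD 6 nt). Size periods were fitted over the sizes from the 5th to the 95th percentile. Scripts were tested on simulated data. The members and lists were chosen with earlier results of these data known. Named regions were, per arm, the 1-Mb blocks with the highest and lowest share between 100 and 200 nt and the windows with most 40 to 90 bp and MNase ends. Alternatives counted each position once, left out extreme windows, thinned to the MNase depth, moved borders, or changed windows, distances, baselines and smooths. Base composition and genes were not analysed here. Tools were SciPy 1.17.1, NumPy 2.4.6, Numba 0.67.0 and pandas 2.3.3 under Python 3.11.15, with plots by Matplotlib 3.10.9.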

Additional observations from a re-analysis of the deposited data

How the results depend on the processing

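With 1 library per condition, an alternative was judged against the counting interval (coverage), 1 SD of the 1-Mb blocks (shares, repeats, most frequent sizes, profiles), 1.5 times the value (window counts), 0.05 nt (size periods) or 0.05 (correlations). Of 246 alternative values, 138 stayed within these bounds, 91 moved and 17 changed direction. No paired analysis was possible because each condition has 1 library and no replicate number. Base composition was planned and not run.

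The coverage ratio of the 3 arms at 40 to 90 bp (0.800) was 0.816 with each position counted once, 0.807 without windows of extreme coverage, 0.806 from median windows, 0.798 from 10-kb windows and 0.773 for the outer 0.25 against the middle 0.5 of each chromosome. The MNase ratio (0.963) was 0.946 with each position once, 0.976 without extreme windows, 0.926 from median windows, 0.960 from 10-kb windows, 0.949 for the outer 0.25 and 0.966 without the outermost 1 Mb. From median windows the MNase ratio of II was 1.00.

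With the opposite arm in place of the center, several values changed sign, since the opposite arms had lower coverage and a higher share. On II the 40 to 90 bp ratio (0.979) and on III the MNase ratio (0.982) stayed below 1. The 40 to 90 bp ratio was then 1.03 over all 3, 1.02 on III and 1.08 on V. The 140 to 240 bp ratio was 1.04 over all 3, 1.01 on II, 1.03 on III and 1.07 on V. The MNase ratio was 1.03 over all 3 and 1.01 on V. The share difference in percentage points below 100 nt was -2.31 over all 3, -1.91 on III and -5.09 on V, and between 100 and 200 nt it was -1.23, -1.93 and -1.98.

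The MNase repeat of the centers was 181 nt without a taper. Arm windows under 0.5 times the median at 40 to 90 bp were 4.72% without extreme windows, 15.0% at a fold of 1.5 and 3.22% in 10-kb windows. Those over 2 times were 0.0183% with each position once, 4.22% at a fold of 1.5 and 0% in 10-kb windows. MNase windows below were 26.3% at a fold of 1.5 and 8.21% in 10-kb windows, and those above were 3.96% with each position once, 21.3% at a fold of 1.5 and 1.22% in 10-kb windows. The correlation over the arms in 10-kb windows, an alternative chosen after seeing the data, was -0.0023. Apart from the settings named here, the cause of these moves was not tested. Without extreme windows the MNase share below 100 nt fell to 3.10% in the arm of V, against 8.22% with them.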
